A study of Homo sapiens with 3 samples.

Results

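The androgen-repressed genes described here are 7 genes listed as going down in prostate cancer cells when androgen is added: UGT2B17, UGT2B15, OPRK1, CXCR7, MET, DDC and BCHE. They were chosen by name, and each was read over the hg19 gene body that the choice gives in whole kilobases, with 100 kb on either side for comparison. The bodies add up to 391 kb and hold 34 of the 131798 peaks on nuclear chromosomes in cells given dihydrotestosterone (DHT), and 30 of the 117564 in untreated cells. The peaks come from chromatin immunoprecipitation sequencing (ChIP-seq) of trimethylated histone H3 lysine 36 (H3K36me3) in LNCaP, an established prostate cancer line that carries an androgen receptor and responds to androgen. One library was from LNCaP cells given 100 nM DHT for 4 h in RPMI labelled red-free, and the other from LNCaP cells labelled as having no treatment. Both groups were kept in RPMI with serum, and since the untreated label names no change of medium, the hormone and the medium cannot be told apart. A library of input DNA was not analysed here. With 1 library per condition there is no replicate and no test: every interval below covers counting error only. The files hold no RNA, so repression itself was not measured, and LNCaP marker genes could not be placed on hg19 and were not checked.

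H3K36me3 is laid down over the bodies of transcribed genes by an enzyme that travels with elongating RNA polymerase II, so it marks where transcription has passed, more towards the 3′ end than at the start. DHT binds the androgen receptor, which moves to the nucleus and binds DNA near its targets, where some genes are activated and others repressed. Among the repressed ones in prostate cells are enzymes that inactivate androgens themselves, along with several cell-surface receptors.

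The RefSeq promoter table (GRCh38.p14) was used for 4 of the 7 genes, UGT2B15, MET, BCHE and DDC. For these genes it gave the direction of transcription used below. It was searched on both strands for the 6-base half-site of the androgen receptor, AGAACA or its reverse complement TGTTCT. UGT2B15 held 1 half-site, whose first base lies 172 bases before the gene start, while MET, BCHE and both DDC starts held none in the 300-base window. At least 1 half-site was held by 14.8% of the 35116 promoters read, and the full element, both half-sites with 3 bases between them, by 1. The promoters differed more in CpG content: MET had 30 CpG dinucleotides and UGT2B15 had 0, BCHE 2 and each DDC start 3. The median was 14 over the 35116 promoters read. The promoters of UGT2B15 and MET are shown because they stand at these extremes and because neither gene body had a base under peaks of both libraries. The windows run from 250 bases before to 50 bases after the gene start. The first is chr4:68670603-68670902 on the minus strand, with the half-site in capitals, and the second is chr7:116671946-116672245 on the plus strand, with each CG in capitals, both in GRCh38.p14.
UGT2B15: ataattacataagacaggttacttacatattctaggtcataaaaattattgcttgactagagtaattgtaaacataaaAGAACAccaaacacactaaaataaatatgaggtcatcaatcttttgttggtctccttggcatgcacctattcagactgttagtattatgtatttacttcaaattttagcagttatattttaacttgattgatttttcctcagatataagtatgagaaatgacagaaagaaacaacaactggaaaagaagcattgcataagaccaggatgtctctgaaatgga
MET: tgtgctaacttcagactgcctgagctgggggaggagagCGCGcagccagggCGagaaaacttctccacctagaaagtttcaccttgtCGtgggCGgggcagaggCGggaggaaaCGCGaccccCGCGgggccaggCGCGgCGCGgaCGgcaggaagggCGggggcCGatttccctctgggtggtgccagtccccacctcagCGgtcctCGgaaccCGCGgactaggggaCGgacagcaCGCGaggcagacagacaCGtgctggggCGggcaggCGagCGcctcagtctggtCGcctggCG
A match is a description of the letters only. The peaks are in hg19 coordinates and were not placed on these windows.

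Across the whole lists, DHT peaks covered 66.0 Mb and untreated peaks 64.3 Mb, a ratio of 1.03, with median widths of 354 bp after DHT and 374 bp in untreated cells. The sequencing depth behind the peaks is unknown. A peak list shows where a caller's threshold was passed, so covered length is not a level of the mark.

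In both libraries some of the genes were widely covered by peaks and the others thinly. OPRK1, CXCR7 and DDC held 87.8% of the base pairs covered over the 7 bodies after DHT and 87.6% in untreated cells. UGT2B17, UGT2B15, MET and BCHE had between 0.541% and 2.65% of their bodies covered after DHT, and between 0% and 1.87% in untreated cells. Of the genome up to the last peak of each chromosome, 2.13% was covered after DHT and 2.08% in untreated cells. UGT2B17, MET and BCHE were below these shares in both libraries, and UGT2B15 was above them after DHT only. A peak touched 7 of 7 bodies after DHT and 6 of 7 in untreated cells, all but UGT2B15. When only peaks with a score of at least 100 were kept, 5 bodies were touched in each library. Among 123692 windows of 25 kb tiled over the genome, 34.6% held a DHT peak and 32.8% an untreated one. The share is higher in longer windows: of windows as long as MET, 60.3% held a DHT peak and 59.2% an untreated one. Summed over the 7 genes, the bodies were covered over 18472 bp after DHT and 21791 bp in untreated cells, a ratio of 0.848 (95% counting interval 0.452 to 1.59). The interval includes both 1 and the ratio of the whole lists. It treats the peaks of the libraries as independent, although 16 of 34 DHT peaks overlapped an untreated one. It therefore cannot decide whether the ratio differs from 1. The ratio was above 1 when only peaks with a score of at least 100 were kept (1.15) or when each list was joined at 1 kb (1.02), and it was 0.687 without DDC. DHT peaks made up 53.1% of the peaks over the bodies (exact binomial interval 40.2% to 65.7%), against 52.9% of all peaks.

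**Figure D1:**
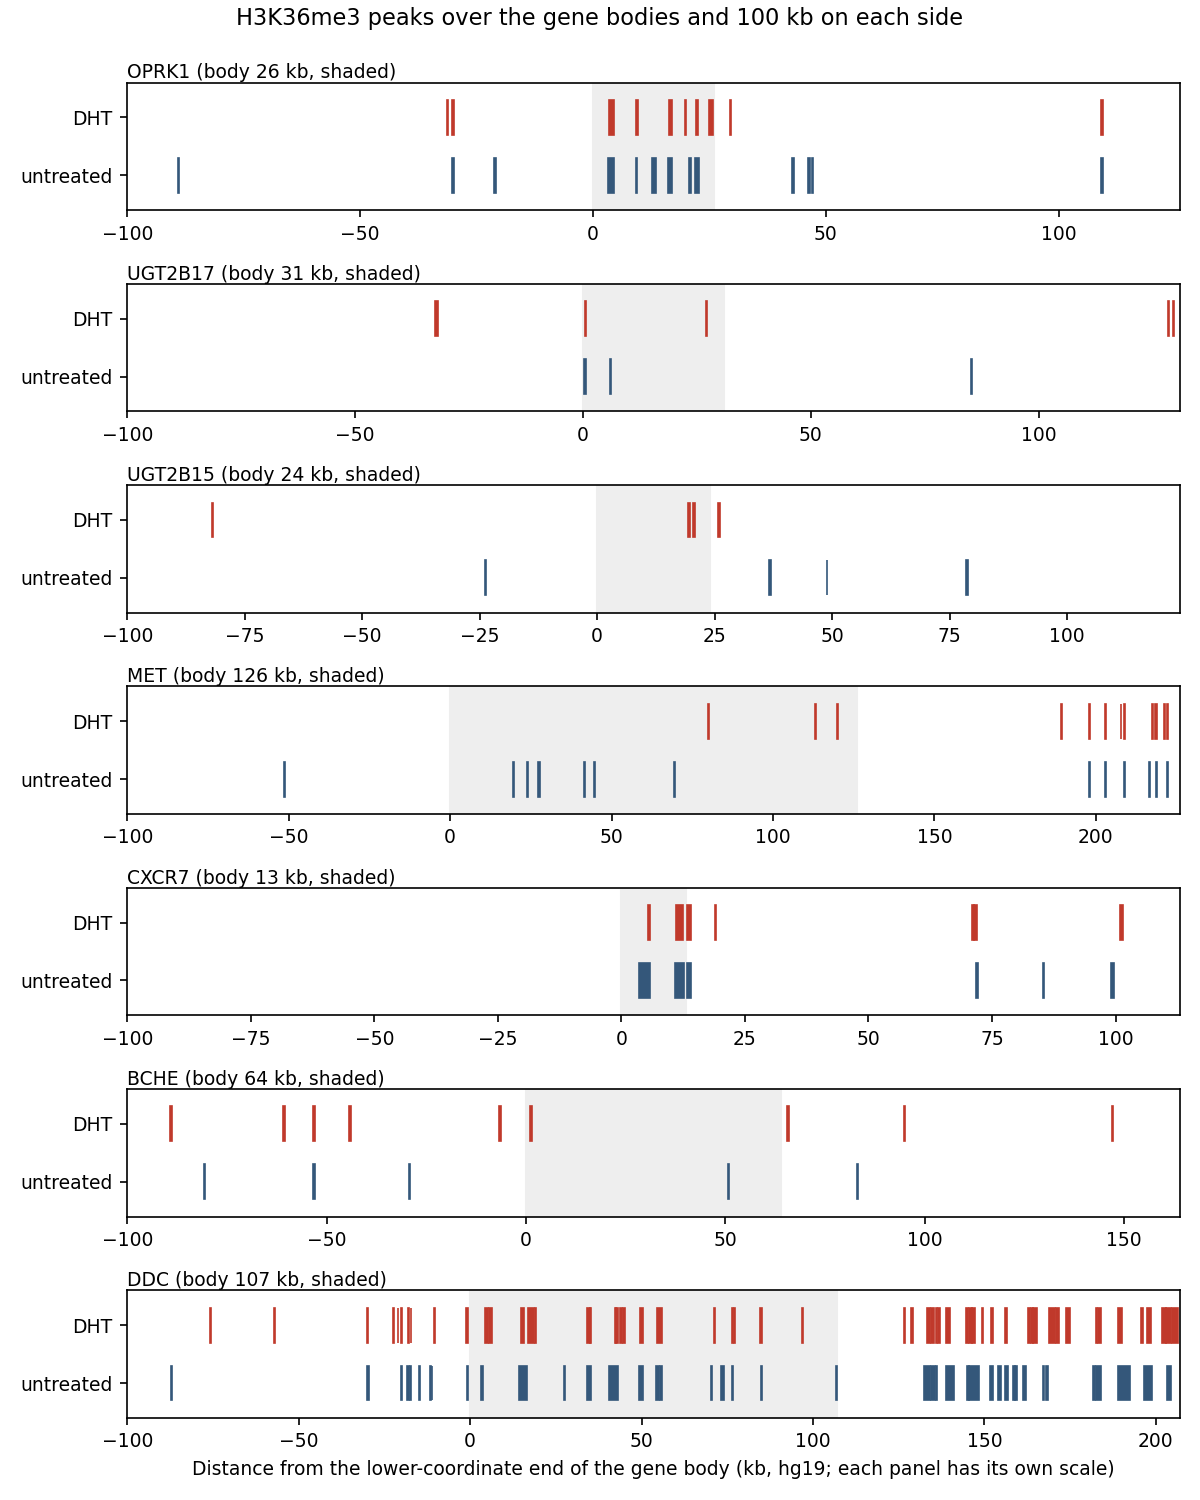
Positions of H3K36me3 peaks (coloured bars, DHT above untreated) along each gene body (shaded) and 100 kb on each side, in kb from the lower-coordinate end of the body; the narrowest peaks are drawn slightly wider than to scale. OPRK1 has 6 peaks in each library, DDC has 18 DHT and 13 untreated peaks, and CXCR7 has 2 in each library. MET has 3 DHT and 6 untreated peaks at different places, and UGT2B15 has 2 DHT peaks and no untreated one.

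UGT2B17 and UGT2B15 encode glucuronosyltransferases that attach glucuronic acid to DHT and its metabolites and so inactivate them. They neighbour each other on chromosome 4 and are close copies in sequence. How reads that fit both copies were placed by the authors is not stated in these sources, so which of the 2 genes a peak belongs to is uncertain. UGT2B17 (chromosome 4, 69403001 to 69434000) had 2 peaks in each library, covering 427 bp after DHT and 581 bp in untreated cells. The first pair coincided close to the lower-coordinate end: the DHT peak from 69403403 to 69403590 lay wholly inside the untreated peak from 69403348 to 69403629. The second ones lay apart, from 69430030 to 69430268 after DHT and from 69408850 to 69409148 in untreated cells. At a covered length ratio of 0.735, UGT2B17 did not reach 1.5-fold. It did so with scores of at least 75, at 188 bp after DHT and 581 bp in untreated cells, while in the higher-scoring 50% of each list it had 188 bp after DHT and 0 bp in untreated cells.

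UGT2B15 (chromosome 4, 69512001 to 69536000) had 2 DHT peaks and 0 untreated peaks. The DHT peaks lay from 69531436 to 69531719 and from 69532489 to 69532839, at 18.4% and 13.9% of the gene's length from its 5′ end, and covered 635 bp. The second scored 123, above 72.6% of the DHT list, and the first scored 57.0, above 13.0% of it. Another DHT peak stood 1.80 kb outside the 5′ end, while the nearest untreated peaks were 12.6 kb beyond that end and 23.6 kb beyond the other. No fold is given against a library with no peak. Of the 25 kb windows with at least 500 bp covered in either library, 6.97% had at least 500 bp after DHT and no untreated peak. Peaks in only 1 of the libraries, of any length, were found in 35.3% of the 25 kb windows with a peak.

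OPRK1 encodes the kappa opioid receptor, a G protein-coupled receptor for dynorphins. Its body (chromosome 8, 54138001 to 54164000) had 6 peaks in each library, covering 3320 bp after DHT, or 12.8%, and 4203 bp in untreated cells, or 16.2%. That was among the most covered in the genome for its size: 4.73% of 26 kb windows had as much covered after DHT, and 2.82% in untreated cells. The peaks were spread along the body, with no peak-free stretch longer than 6.66 kb after DHT and 4.82 kb in untreated cells. Of the 6 peaks in each library, 4 overlapped a peak of the other. The strongest untreated peak, from 54141278 to 54142431 with a score of 613, exceeded 99.8% of its list, and a DHT peak from 54141534 to 54142429 lay inside it with a score of 464, above 99.1% of its own list. The DHT list had its highest OPRK1 score, 477, at a second shared place, from 54154229 to 54154905. An untreated peak of 963 bp from 54150606 to 54151568 had no DHT counterpart, and a DHT peak of 750 bp from 54163020 to 54163769, at the higher-coordinate end, had no untreated one. The covered length ratio was 0.790, short of 1.5-fold. RefSeq lists the long noncoding gene LOC105375836 as overlapping OPRK1, and the mark of the 2 genes cannot be told apart.

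CXCR7, now named ACKR3, encodes an atypical chemokine receptor that binds and scavenges CXCL12. Its body (chromosome 2, 237478001 to 237491000) had 2 peaks in each library, covering 1798 bp after DHT, or 13.8%, and 3851 bp in untreated cells, or 29.6%. As much was covered in 4.49% of 13 kb windows after DHT and in 0.670% of them in untreated cells. The covered length ratio of 0.467 passed 1.5-fold, and most of the difference came from 1 of the 2 places. There the untreated peak ran from 237481635 to 237483809 and the DHT peak from 237483449 to 237483809, so both end at the same base while the DHT one is 361 bp wide and the untreated one 2175 bp. The other pair was close in position and width, from 237489077 to 237490513 after DHT and from 237488936 to 237490611 in untreated cells. This pair held the top CXCR7 scores, 570 after DHT, above 99.6% of that list, and 397 in untreated cells, above 98.96% of the untreated list. All DHT sequence over the gene was also covered in untreated cells, whereas 46.7% of the untreated sequence was covered after DHT. A further pair of peaks began 0.230 kb beyond the higher-coordinate end after DHT and 0.211 kb beyond it in untreated cells. RefSeq gives this gene a length of 45.2 kb in GRCh38.p14, longer than the 13 kb used here. No peak of either library lay in the 100 kb on the lower-coordinate side, so with the extra length put on that side the peaks and the ratio stay as given but the percentages do not. The body would then be covered over 3.97% after DHT and 8.51% in untreated cells, as much as 17.3% of windows of that length after DHT and 8.51% of them in untreated cells. It would be 2.94 times as covered as its flanks after DHT and 7.69 times in untreated cells.

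MET encodes the receptor tyrosine kinase for hepatocyte growth factor. Its body (chromosome 7, 116312001 to 116438000, plus strand) had 3 DHT peaks covering 854 bp, or 0.678%, and 6 untreated peaks covering 1825 bp, or 1.45%. The ratio of 0.468 passed 1.5-fold. DHT peaks were 33.3% of the peaks over the gene, with an exact binomial interval of 7.49% to 70.1% that includes the 52.9% of the whole lists. The libraries shared no base there. The untreated peaks lay at 15.6% to 55.2% of the gene's length from the 5′ end and the DHT peaks at 63.5% to 95.2%, so every DHT peak was downstream of every untreated one. On the 5′ side of the gene's midpoint 0 bp were covered after DHT and 1454 bp in untreated cells. On the 3′ side 854 bp were covered after DHT and 371 bp in untreated cells. The DHT peaks ran from 116391820 to 116392153, from 116425142 to 116425463 and from 116431834 to 116432031. All 9 peaks were narrow, at 198 to 334 bp after DHT and 193 to 404 bp in untreated cells. The highest score was 106 after DHT, on the last of these and above 63.8% of that list, and 157 in untreated cells, on the widest peak there, from 116339364 to 116339767, and above 85.5% of the untreated list. Of 126 kb windows, 41.0% had at least as much covered after DHT and 32.1% in untreated cells. The RefSeq table lists the long noncoding gene COMETT and the pseudogene LOC124901824 as overlapping MET, and the lists do not say from which strand a mark arose.

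DDC encodes aromatic L-amino acid decarboxylase, which makes dopamine and serotonin and has been described as a partner of the androgen receptor. Its body (chromosome 7, 50526001 to 50633000, minus strand) held most of the DHT peaks of the 7 genes, 18 of 34, and 13 of the 30 untreated ones. Covered length was almost equal, 11092 bp or 10.4% of the gene after DHT and 11045 bp or 10.3% in untreated cells. With scores of at least 100 it was not: 7724 bp were then covered after DHT and 2250 bp in untreated cells, which passed 1.5-fold. That cutoff was the same in both lists, although the scale of the scores is not stated. In the higher-scoring 50% of each list, 8218 bp were covered after DHT and 6895 bp in untreated cells, short of 1.5-fold. DDC passed 1.5-fold in 1 of 7 alternatives on peak lists and body bounds. The DHT peaks were more numerous and narrower, with a median width of 478 bp against 539 bp in untreated cells, and the widest was 1744 bp (50542803 to 50544546) against 2615 bp (50566609 to 50569223). DHT peaks made up 58.1% of the peaks over the gene (39.1% to 75.5%). Equal length did not mean the same places: 5054 bp were shared, or 29.6% of what either library covered.

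Peaks covered more of DDC downstream in both libraries. On the 3′ side of its midpoint 8222 bp were covered after DHT and 7653 bp in untreated cells. On the 5′ side 2870 bp were covered after DHT and 3392 bp in untreated cells. The highest DHT score, 377, was at the 3′ end, on the peak from 50530435 to 50531103, where no untreated peak overlapped it. The highest untreated score, 272, was on the peak from 50560193 to 50561309, which 2 DHT peaks covered over 90.6% of its width. An untreated peak of 202 bp from 50632678 to 50632879 lay at the very start of the gene, 0.207% of its length from the 5′ end, while the first DHT peak lay at 9.49%. DDC overlaps an antisense gene, DDC-AS1, in RefSeq, and the mark of the 2 genes cannot be told apart.

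BCHE encodes butyrylcholinesterase, which hydrolyses choline esters. Over its body (chromosome 3, 165491001 to 165555000, minus strand) each library had a single peak, and they lay on opposite sides of its midpoint. The DHT peak ran from 165492141 to 165492486, at 97.9% of the gene's length from the 5′ end, with a score of 66.4. The untreated peak ran from 165541586 to 165541871, at 20.7%, with a score of 110. They covered 346 bp after DHT and 286 bp in untreated cells, too little for the 500 bp that a call required. Windows of 64 kb with at least as much covered made up 39.1% of all after DHT and 42.4% in untreated cells.

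Covered length was compared by a single rule: 1.5-fold or more between the libraries, with at least 500 bp in the higher one. Over the 7 bodies, 2 were lower after DHT, CXCR7 and MET, where 25% of the 32538 windows of 25 kb with 500 bp in either library were lower by the same rule. Of windows as long as CXCR7, 27.9% were lower, and of windows as long as MET, 19.4%. By that rule 1 was higher, UGT2B15, against 26.7% of windows. Of the 7 bodies 6 had the 500 bp needed, so both counts are near the background and single out neither direction for these genes. The median ratio over the 5 genes with peaks in both libraries and 500 bp in either was 0.735, against 0.972 over the 28836 windows that met the same conditions, whose quartiles were 0.687 and 1.42. CXCR7 and MET were below the lower quartile, and OPRK1, UGT2B17 and DDC lay between the quartiles. BCHE, with a ratio of 1.21, had too little covered to be set beside these windows.

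**Figure D2:**
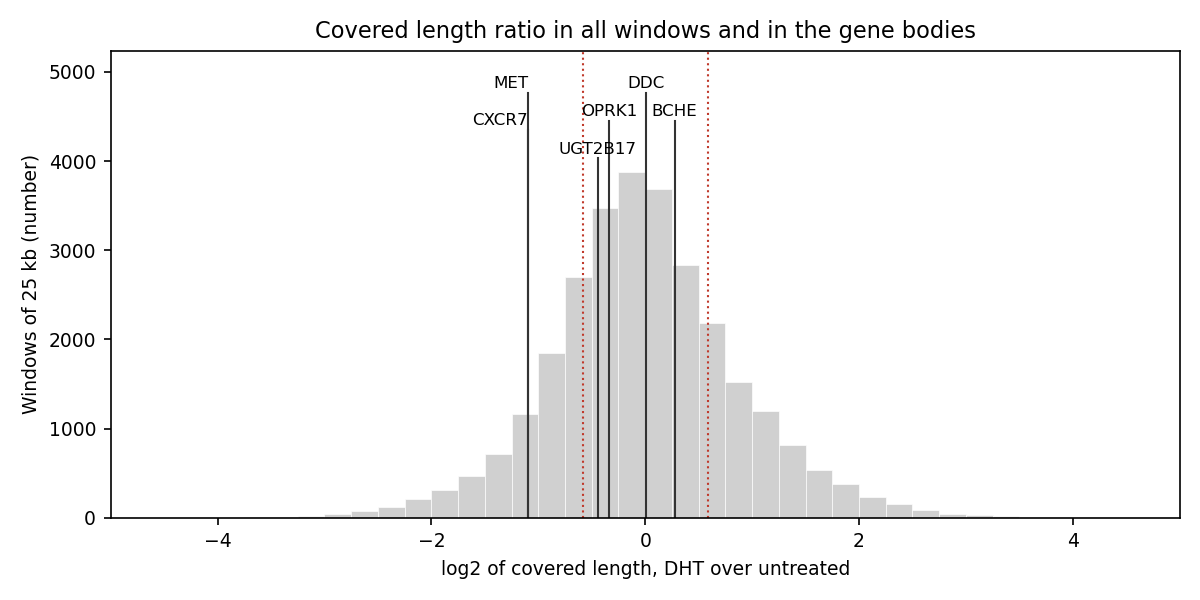
Distribution of the log2 ratio of covered length, DHT over untreated, in windows of 25 kb with peaks in both libraries and at least 500 bp in either (grey bars), with the 6 genes that have peaks in both as black lines, BCHE among them with under 500 bp; dotted lines mark 1.5-fold. MET and CXCR7 stand together at -1.10, and the other 4 genes lie between the dotted lines; UGT2B15 has no ratio and is not drawn.

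Set against 100 kb on each side, with the neighbouring member left out for UGT2B17 and UGT2B15, the bodies of 4 of 7 genes were more covered than their flanks after DHT, and in untreated cells 4 of the 6 that had a peak. Of 25 kb windows that held a peak, 63.2% were more covered than their flanks after DHT and 64.5% in untreated cells. OPRK1 lay in thinly covered surroundings. Its flanks were covered over 0.481% after DHT and 1.09% in untreated cells, so the body was 26.5 times as covered after DHT and 14.8 times in untreated cells. CXCR7 was 10.8 times as covered as its flanks after DHT and 26.8 times in untreated cells, and all of its flanking peaks lay on the higher-coordinate side. UGT2B17 was 4.71 times as covered after DHT and 10.8 times in untreated cells, on 2 narrow peaks each. RefSeq gives UGT2B17 a length of 39.15 kb, against the 31 kb used, so its percentages and folds over the flanks depend on the bounds. UGT2B15 was covered over 2.65% after DHT with 0.212% in its flanks, and over 0% in untreated cells with 0.629% in its flanks.

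MET was less covered than its flanks in 1 library and more in the other, at 0.508 times its flanks after DHT and 1.45 times in untreated cells. Its flank peaks were nearly all on the higher-coordinate side, 9 of 9 after DHT and 6 of 7 in untreated cells, beginning 63.3 kb beyond the gene after DHT and 71.9 kb beyond it in untreated cells, where the next protein-coding gene in RefSeq order is CAPZA2, which encodes a subunit of the actin capping protein. BCHE was less covered than its flanks in both libraries, at 0.399 times after DHT and 0.829 times in untreated cells. DDC was also less covered than its flanks, at 0.815 times after DHT and 0.751 times in untreated cells, although its cover was among the highest 5.36% of windows of its length after DHT and 5.03% in untreated cells. This came from 1 side. The higher-coordinate 100 kb, upstream of DDC where GRB10, an adaptor of insulin receptor signalling, is the next protein-coding gene in RefSeq order, was covered over 22.4% after DHT and 24.2% in untreated cells. The other side, towards FIGNL1, was covered over 3.10% after DHT and 3.27% in untreated cells.

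**Figure D3:**
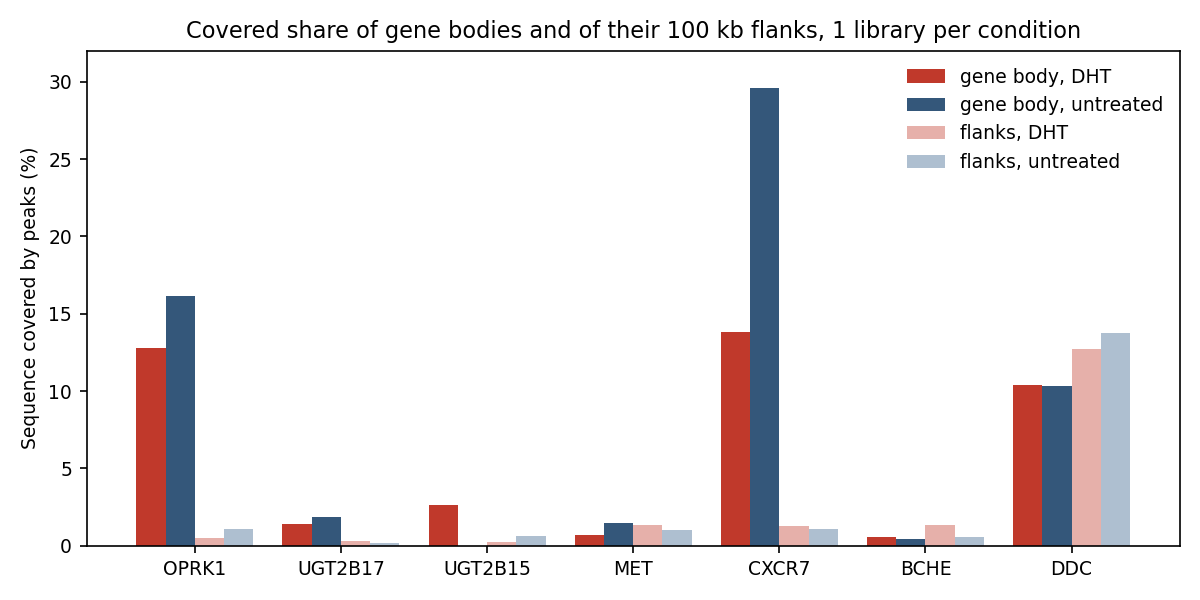
Percent of sequence covered by peaks in each gene body (dark bars) and in its 100 kb flanks (pale bars), for the DHT library (red) and the untreated library (blue), 1 library each. OPRK1 and CXCR7, at the body lengths used, exceed their flanks over 10 times in both libraries, and DDC has flanks more covered than its body.

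The positions of peaks coincided about as often as elsewhere. Of the DHT peaks over the 7 bodies, 16 of 34 (47.1%, exact binomial interval 29.8% to 64.9%) overlapped an untreated peak, against 48.5% of all DHT peaks. Of the untreated peaks, 15 of 30 (50%, 31.3% to 68.7%) overlapped a DHT peak, against 52.3% of all untreated peaks. Sequence covered in both came to 30.4% of that covered in either, against 32.5% over the genome. It was confined to OPRK1 at 45.2%, CXCR7 at 46.7%, DDC at 29.6% and UGT2B17 at 22.9%. MET and BCHE had peaks in both libraries with no shared base, which held for 18.4% of 25 kb windows with peaks in both, and for 20.3% of windows as long as MET and 20.2% of windows as long as BCHE.

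Scores are the authors' own values and their scale is not stated in the files, so they rank peaks within a list only. Over the 7 bodies the median score was 91.9 after DHT, in a list with a median of 85.7, and 93.6 in untreated cells, in a list with a median of 81.2. The highest were all on OPRK1, CXCR7 and DDC: these genes held each score above 157 in either library. At CXCR7, 1 of 2 DHT peaks and 2 of 2 untreated peaks scored above their list's median. At OPRK1 it was 4 of 6 DHT peaks and 5 of 6 untreated ones, and at DDC 10 of 18 DHT peaks and 8 of 13 untreated ones. At MET it was 1 of 3 DHT peaks and 3 of 6 untreated ones, and at UGT2B17 1 of 2 DHT peaks and 0 of 2 untreated ones.

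**Figure D4:**
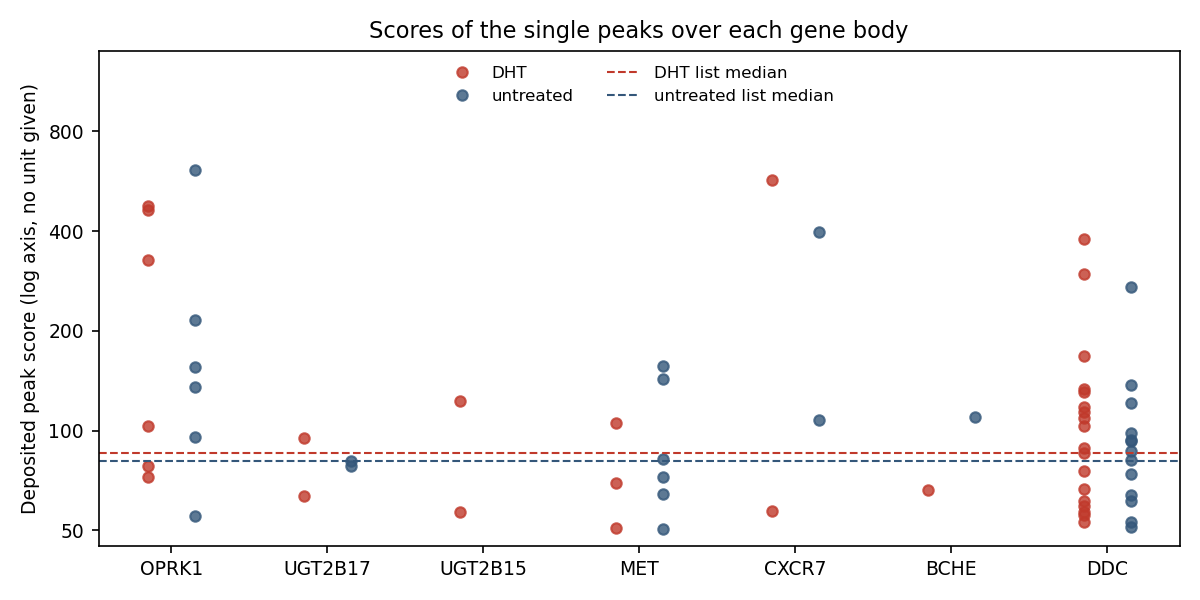
Deposited score of every peak over each gene body (log axis), DHT in red left of untreated in blue, with the median of each whole list as a dashed line. OPRK1, CXCR7 and DDC reach 477, 570 and 377 after DHT and 613, 397 and 272 in untreated cells, while the peaks of the other genes lie at or below 157.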

How the data were processed

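Per the labels, H3K36me3 ChIP-seq was done with 1 library of LNCaP cells given DHT and 1 of untreated cells. For each, the authors deposited its own peak list, with a score for every peak. The peak names show MACS as the caller, and the file names show hg19 as the build. Version and settings of the caller, its control, the aligner and the depth are not stated in these sources.

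The members and lists were chosen with earlier results of these data known. All 7 genes are named, each with its strongest and widest peaks. Body coordinates come with the choice of genes, rounded to 1 kb. Nuclear peaks were counted at 1 bp of overlap and covered length was clipped to the bodies, with Python 3.11.15, NumPy 2.4.6, SciPy 1.17.1 and matplotlib 3.10.9. Windows were tiled up to the last peak of each chromosome, assembly gaps included. Shares have exact Clopper-Pearson intervals at 95%. The interval of the covered length ratio takes the sum of squared widths as the variance of each length. The coverage code was tested on simulated peaks. RefSeq tables (GRCh38.p14) gave strands, gene order and promoters. No promoter entry was used for OPRK1, UGT2B17 or CXCR7, and whether the promoter table lists them is not reported here. All 7 genes matched, CXCR7 through its newer symbol. Alternatives were stricter, equal-length and joined lists, other folds, lengths and flanks, and bodies extended by 1 kb.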

Additional observations from a re-analysis of the deposited data

How the results depend on the processing

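No paired analysis was possible because each condition has 1 library. CXCR7 and MET were lower after DHT by the 1.5-fold rule in 7 of 7 alternatives on peak lists and body bounds. UGT2B15 was higher in 4 of 7. The alternatives reuse the same peaks of the same libraries, so they are not independent of each other. The count of genes higher after DHT, 1, was 0 with scores of at least 75, in the higher-scoring 50% of each list and with at least 1 kb required, as UGT2B15 then had 351, 351 and 635 bp covered, under the length required. The count of genes lower, 2, was 4 at the looser of the other folds tried, where OPRK1 and UGT2B17 joined, and 3 with scores of at least 75, where UGT2B17 joined. DDC was higher after DHT in 1 of 7 alternatives, with scores of at least 100, by 5474 bp. The pooled ratio, 0.848, ran from 0.821 to 1.15 over these alternatives and, leaving out 1 gene at a time (chosen after seeing the data), from 0.687 without DDC to 0.929 without CXCR7. Bodies more covered than flanks numbered 4 to 5 after DHT and 3 to 5 in untreated cells. Depth is unknown, and 0 to 18 peaks per gene leave wide counting intervals.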

Other observations

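Outside the gene bodies, the 100 kb on each side held 65 DHT peaks and 54 untreated peaks in all, and covered length there was 35251 bp after DHT and 36398 bp in untreated cells, a ratio of 0.968. Most of it was beside DDC, with 25447 bp after DHT and 27498 bp in untreated cells. The surroundings of BCHE held 8 DHT peaks covering 2707 bp and 4 untreated peaks covering 1078 bp, and those of OPRK1 held 4 DHT peaks covering 963 bp and 7 untreated peaks covering 2184 bp. Single libraries give no measure of how far such numbers differ between repeats.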
